A study of Homo sapiens with 10 samples.

Results

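Long adenine runs are stretches of DNA in which 1 strand reads only adenine and the other only thymine. Every uninterrupted run of at least 15 adenines, or of at least 15 thymines on the plus strand, was taken from the autosomes of GRCh38 if it lay at least 5000 bp from any annotated transcript start. This gave 267027 runs of the 393986 in the autosomes (67.8%), with 132926 reading adenine and 134101 reading thymine on the plus strand. The rule used sequence and annotation only, so no measured value chose a run. Each run was read on its adenine strand, and upstream and downstream below mean the 5′ and 3′ side of the adenines. The nucleosome positions came from human induced pluripotent stem cells (hiPSCs, line PB010.5, with a FUCCI cell cycle reporter in its EEF2 locus). Chromatin was digested for 5 min with micrococcal nuclease (MNase) at 5 amounts between 0.5 and 10 U, the others being 1, 3 and 6 U, and DNA from yeast was added as a spike-in. Each concentration gave 1 library that was sequenced in a deeper and in a low-depth run, which makes 10 samples. The data were a single pooled list of 12921589 positions, each 140 bp long with 1 score, and which sequencing runs were pooled is not given in the sources used here.

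Adenine runs are stiff and bend poorly around the histone octamer, and in many genomes they are known for keeping nucleosomes off the DNA. In the human genome most of the long ones are the tails of retroelements. Alu and L1 elements copy themselves through an RNA that ends in adenines, so a tail marks the 3′ end of the element and the element itself lies upstream. MNase cuts the linker DNA between nucleosomes, and it cuts DNA rich in adenine and thymine more readily than DNA rich in guanine and cytosine.

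The sequences just upstream of the runs fell into classes, which follow the direction in which each run is read. The Alu-end motif CTCNNTCTC stood in the 30 bases before 98788 runs (37.0%), against 0.698% of windows of the same length moved 5000 bp downstream. The L1-end motif AGTATAAT stood before 1006 runs (0.377%), against 0.0678% of the moved windows. Both motifs were searched on the adenine strand only, and a run with both would count as Alu-end. The remaining 167233 runs were divided by a word of the Alu body, AATCCCAGC, in the 350 bases upstream. It was present before 64747 of them and absent before 102486, and over all runs it stood in 51.7% of the windows against 6.85% of the moved ones.

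One run is shown in full because it is a common case, of median length and with the median distance between neighbouring midpoints among the runs with neither end motif. It is the first such run in genome order, printed with 60 bases upstream, 40 downstream and the run in capitals. Coordinates are on GRCh38, and the strand is that on which the run reads adenine.
Typical run with neither motif, 18 bases, chr1:12328360-12328377, minus strand: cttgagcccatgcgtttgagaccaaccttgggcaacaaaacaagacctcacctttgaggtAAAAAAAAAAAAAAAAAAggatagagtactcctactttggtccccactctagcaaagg
It stood in an intron of VPS13D, which encodes a lipid transfer protein and lies on the plus strand. The centre of the run lay 26 bp from the midpoint of a position, 12328272 to 12328411, that scored 22.2. The next position, 12328512 to 12328651, scored 18.5, with its midpoint 240 bp further along the chromosome. The whole run thus lay inside 1 position, as did 49.5% of all runs, a share that was not counted away from the runs.

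Runs of 15 bases were the most frequent, and the median length was 18 bases (quartiles 16 and 22, longest 90). There were 156294 runs of 15 to 19 bases, 70281 of 20 to 24, 29316 of 25 to 29 and 11136 of 30 or more. An autosome held from 3362 to 22846 runs, and 49.6% of the runs had no other run of 15 bases or more within 2000 bp. Since there is 1 pooled list, no sample can serve as a replicate and no test was made. The spread given below is the SD over the 22 autosomes, which measures variation along the genome and not experimental error, with the number of autosomes on the same side of 0. The level away from the runs was read 5000 bp downstream of each run centre.

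Long runs stood in holes of the nucleosome map, and the hole deepened with the length of the run. Within 50 bp of the centre of runs of 30 bases or more there were 1.18 midpoints per kb, against 4.60 per kb at 700 to 1000 bp from the same runs. On the log2 scale this core density was -1.96 ± 0.252 (SD over 22 autosomes), and it was below 0 in 22 of 22. Runs of 25 to 29 bases had 3.04 midpoints per kb against 4.70, a core density of -0.63 ± 0.098, and runs of 20 to 24 bases had 4.10 against 4.73, a core density of -0.21 ± 0.060. Both were also below 0 in 22 of 22 autosomes. Runs of 15 to 19 bases had 4.73 midpoints per kb in the core and 4.73 in the flanks, with 13 autosomes below 0 and 9 above. Their smoothed density still dipped to 0.654 of the flank level at 85 bp downstream, outside the core. Over all runs the core density was -0.16 ± 0.036, and the 4 classes of length covered a wide range around it. This value was -0.61 when positions scoring below the median were dropped, -0.40 with positions weighted by score and -0.37 with a core of 25 bp to each side. At the off-site level, 4.73 midpoints per kb stood in the core and 4.73 in the flanks.

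Base by base, the decline had no visible step. Between runs of 15 bases and runs of 40 or more, core density was lower at 24 of the 25 steps. Each step was 1 base, except the last, from 39 bases to the open class of 40 or more. The exception was the step from 38 to 39 bases, where only 23 and 27 midpoints were counted. Core density was -0.10 ± 0.085 at 20 bases, -0.42 ± 0.173 at 25 bases and -1.32 ± 0.387 at 30 bases. In the 1698 runs of 40 bases or more, 49 midpoints gave a core density of -3.96, and the 20 autosomes with a midpoint there were all below 0. At the lower limit of the rule, runs of 14 bases had 4.78 midpoints per kb in the core and runs of 15 bases 4.78.

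**Figure D1:**
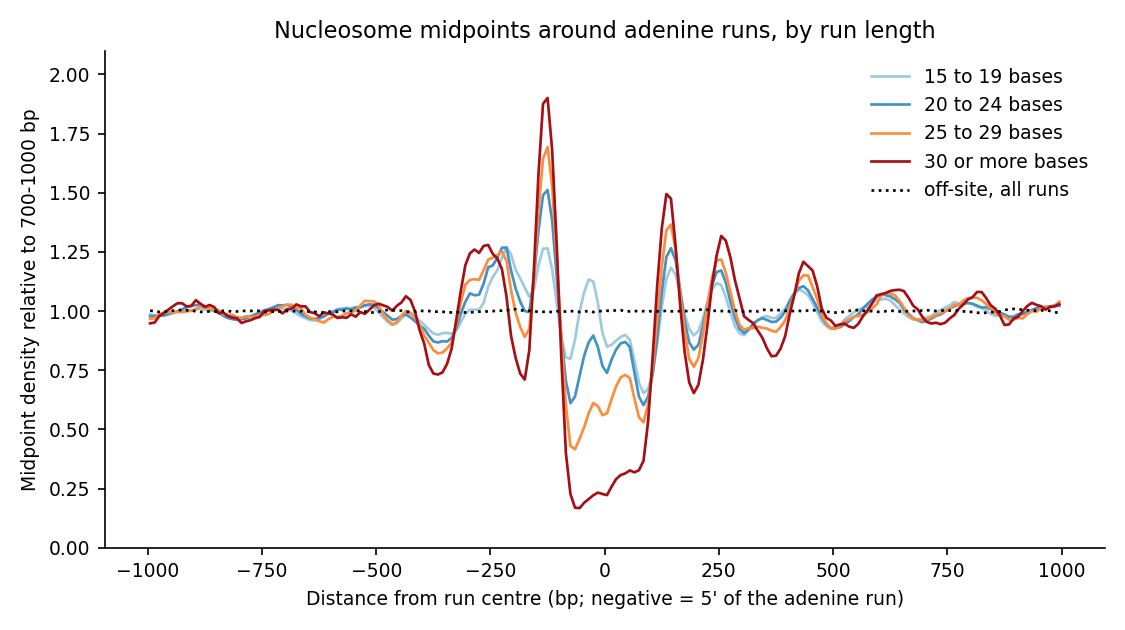
Density of nucleosome midpoints by distance from the run centre in bp (10-bp bins smoothed over 5, negative distances are 5′ of the adenines), divided by the density at 700 to 1000 bp, for 4 classes of run length and for all runs moved 5000 bp downstream. The line for runs of 30 bases or more drops to 0.168 near the run and peaks at 1.90 upstream and 1.49 downstream, and the moved runs stay close to 1.

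Maxima of density flanked the holes. In runs of 30 bases or more, density was below 0.5 of the flank level from about 85 bp upstream to 85 bp downstream, a stretch of 180 bp, with its lowest value of 0.168 at 55 bp upstream. The upstream edge was marked by a maximum of 1.90 at 125 bp from the centre (mean over autosomes 1.92 ± 0.0788) and the downstream edge by a maximum of 1.49 at 135 bp (1.52 ± 0.114). In runs of 25 to 29 bases these maxima were 1.69 and 1.37, in runs of 20 to 24 bases 1.51 and 1.27, and both grew with each class of length. In runs of 15 to 19 bases the highest upstream value was 1.27, reached at 215 bp, and that at 125 bp was nearly as high at 1.27. The downstream maximum there was 1.18 at 145 bp.

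Further maxima followed on the downstream side. In the longest class they stood at 255 bp with 1.32, at 435 bp with 1.21, at 645 bp with 1.09 and at 815 bp with 1.08. Over all runs they stood at 255, 435, 615 and 795 bp, and the last was 1.04. Upstream the profile was less regular. After the maximum at 125 bp a broad hump of 1.28 at 255 bp was followed by 1.06 at 435 bp. Midpoints in the list lay on a grid of 10 bp in 94.4% of cases, so no distance here is finer than that step.

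**Figure D2:**
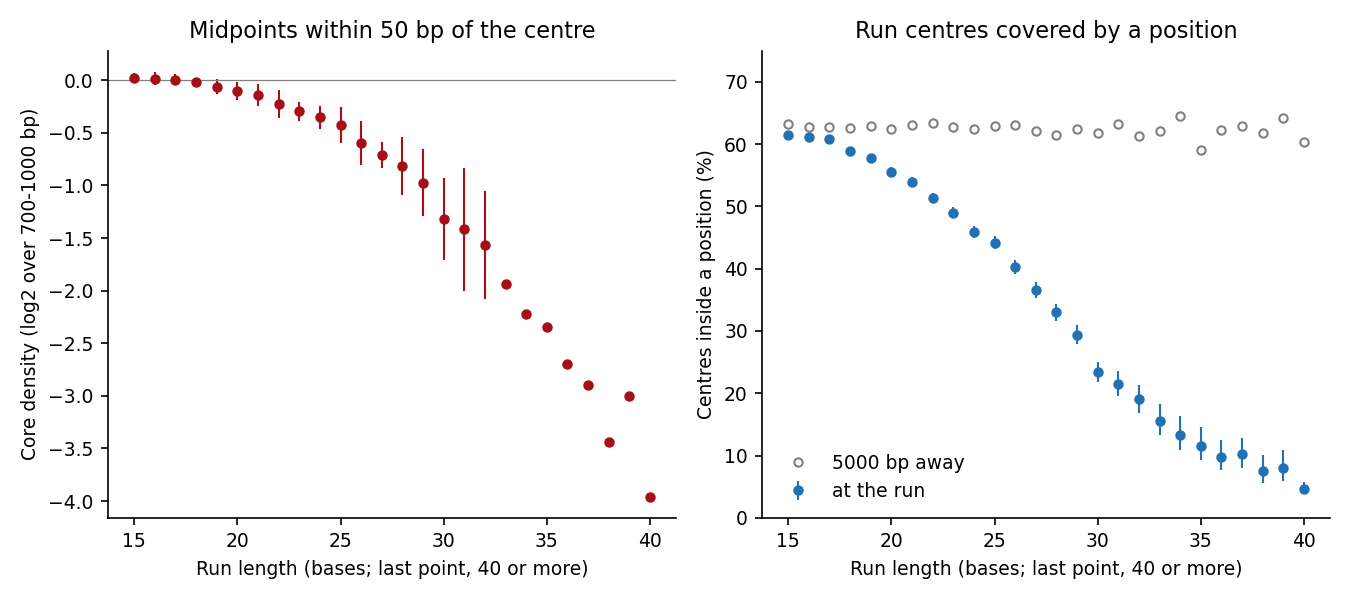
Left, core density (log2 of midpoint density within 50 bp of the centre over that at 700 to 1000 bp) against run length in bases, with the SD over the 22 autosomes as bars where each autosome had a midpoint. Right, percent of run centres inside a 140-bp position with 95% Wilson intervals (filled) and the same 5000 bp away (open). Centres inside a position range from 61.5% at 15 bases to 4.65% at 40 or more, while the open points stay between 59.1% and 64.6%.

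The same runs can be followed one at a time by asking whether a position covered them. Of all run centres, 53.8% lay inside a position (95% Wilson interval 53.6% to 54.0%), against 62.8% at the off-site level. The interval covers counting error only. The share was 60.4% for runs of 15 to 19 bases, 51.7% for 20 to 24, 38.4% for 25 to 29 and 15.3% for 30 or more, and the off-site shares of these classes were between 62.0% and 62.9%. Every class was below its off-site share in 22 of 22 autosomes. No base of the run touched a position in 35.8% of the shortest class and 81.0% of the longest, a count of 9018 runs. Touching was not counted off-site, where 62.9% of the centres of the shortest class lay inside a position. The 35.8% alone therefore does not set that class apart. Among the 1698 runs of 40 bases or more, 1565 touched no position and 4.65% had their centre in 1 (3.75% to 5.76%).

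The neighbours of a run stood wider apart than at the off-site points, which was also so for the tracts of mixed A and T described below. From the last midpoint before a run centre to the first one after it, the median distance was 250 bp (quartiles 180 and 365), against 220 bp off-site. It was 240 bp for runs of 15 to 19 bases, 280 bp for 25 to 29 and 350 bp for 30 or more. For the longest class the difference from the off-site median was 125 ± 15.1 bp (mean and SD over the autosomes), above 0 in 22 of 22. Distances of 300 bp or more surrounded 63.4% of these runs and 31.2% of their off-site points.

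The place of the run inside the positions that remained was uneven. Around runs of 15 to 19 bases, midpoints 20 to 40 bp upstream of the run centre reached 1.23 of the flank level, so that the run lay 3′ of the midpoint. Midpoints within 10 bp of the run centre reached 0.832, those 20 to 40 bp downstream 0.965, and those 50 to 70 bp downstream 0.777. Around runs of 30 bases or more the downstream side had the higher values, with 0.327 at 20 to 40 bp downstream against 0.262 upstream, and 0.282 at 50 to 70 bp downstream against 0.123 upstream. These last values rest on 126 to 335 midpoints each.

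**Figure D3:**
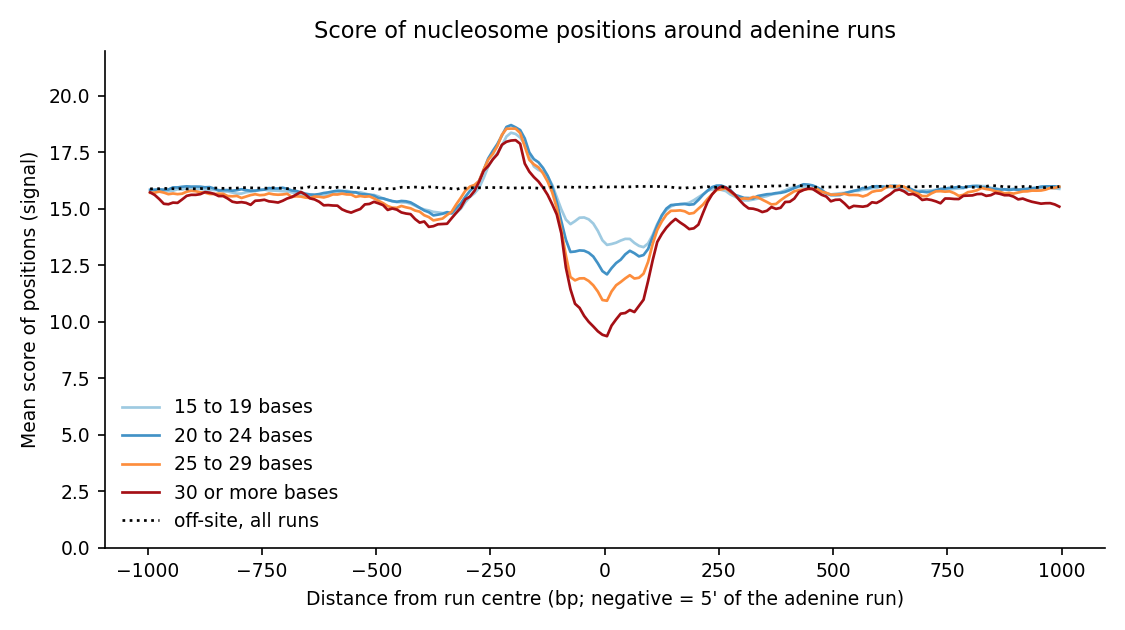
Mean score of the positions (the signal in the authors' list, scaling not stated) by distance of their midpoint from the run centre in bp, smoothed over 5 bins of 10 bp, for 4 classes of run length and for all runs moved 5000 bp downstream. Scores dip at the run, to 9.37 in runs of 30 bases or more, and the upstream maxima lie between 18.0 and 18.7.

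The positions left near the runs also had lower scores. The score is the signal that the list gives each position, with a median of 14.8 and a smallest step of 1.23. Within 50 bp of a run centre its mean was 13.4, against 15.8 at 700 to 1000 bp, a difference of -2.40 ± 0.566 that was below 0 in 22 of 22 autosomes. The difference was -1.87 ± 0.526 for runs of 15 to 19 bases, where the number of positions was at the flank level, and -5.46 ± 1.23 for runs of 30 or more. Upstream the mean score reached 18.5 at 205 bp over all runs. Downstream, at 50 to 250 bp, it was 1.03 ± 0.133 lower than in the flanks.

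Scores and GC content moved together across the list, so positions were also compared at equal GC content. There were 134094 positions that held a whole run, with a mean score of 13.5, against 15.3 for all positions at least 5000 bp from a transcript start. In windows with 45 to 50% GC, positions with a run scored 15.2 and all positions 17.9, a difference of -2.76 ± 0.288 that held in 22 of 22 autosomes. At 50 to 55% the difference was -3.82 ± 0.440. At 30 to 35% it was 0.206 ± 0.212, and at 25 to 30% it was 0.294 ± 0.231, so the lower score was not seen where the rest of the window was also poor in GC.

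Density on the 2 sides of the runs was unequal. At 50 to 250 bp upstream there were 5.15 midpoints per kb, a log2 density of 0.12 ± 0.0293 over the flanks and above 0 in 22 of 22 autosomes. At 50 to 250 bp downstream there were 4.38 per kb, which gave -0.11 ± 0.0159, below 0 in 22 of 22. GC content was 49.1% upstream, 40.1% downstream and 40.8% in the flanks. Each zone was then divided by the density expected from its GC content. That expectation came from all autosomal sequence at least 5000 bp from a transcript start, the runs included. The upstream value became -0.11 ± 0.0254 and the downstream value -0.05 ± 0.0144. The upstream excess as counted therefore turned into a deficit, while the core density of all runs stayed at -0.15 and that of runs of 30 bases or more at -1.79. The flanking maxima also remained, at 1.54 upstream and 1.52 downstream for runs of 30 bases or more, and they were then close to equal.

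**Figure D4:**
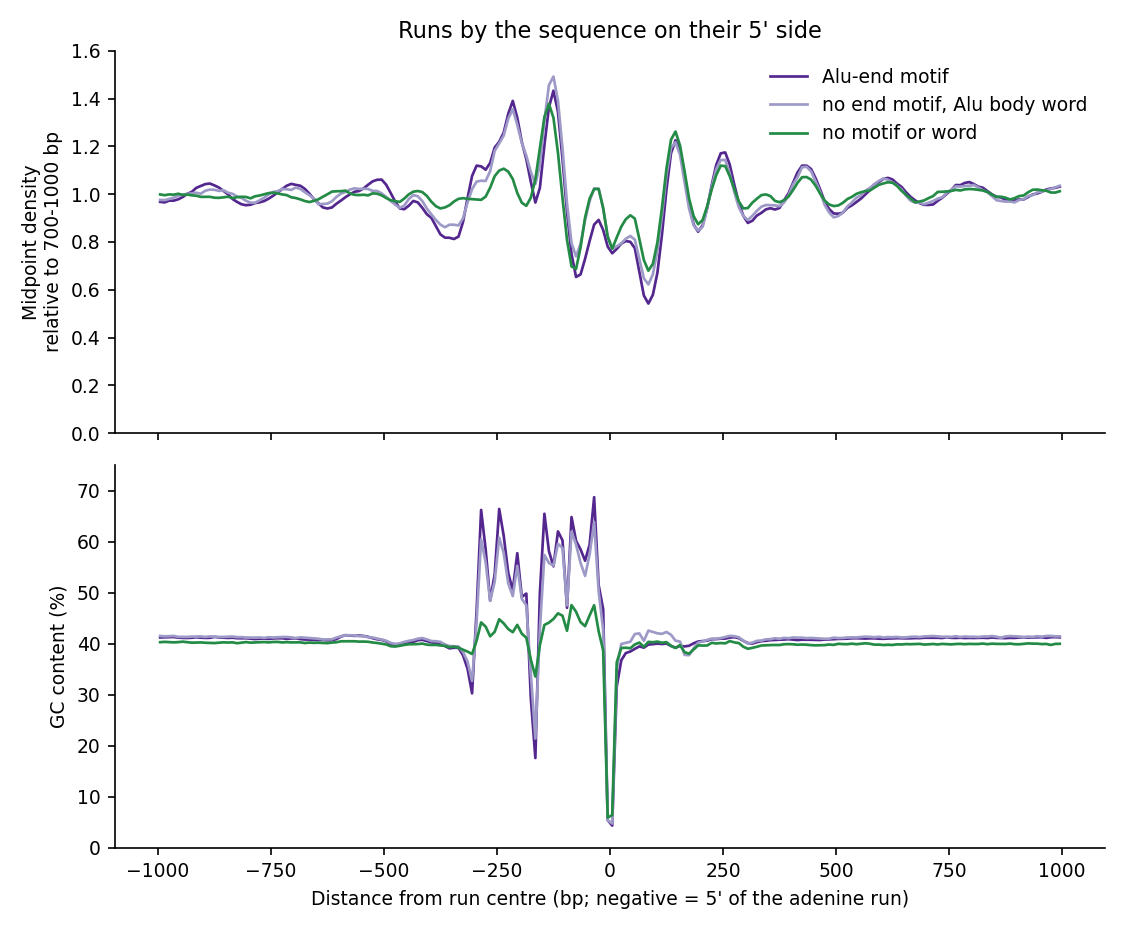
Upper panel, midpoint density relative to 700 to 1000 bp by distance from the run centre in bp for runs with the Alu-end motif, runs with the Alu body word only and runs with neither. Lower panel, GC content in percent in 10-bp bins at the same distances. The first 2 classes share a second upstream peak near 215 bp and a GC-rich stretch upstream, and all 3 share the dips on both sides of the run and the downstream maximum at 145 bp.

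The classes differed in the core and on both sides of it. Core density was -0.25 ± 0.0332 in the Alu class, -0.14 ± 0.0535 with the body word only and -0.08 ± 0.0531 with no motif or word. The Alu class lay below the last of these by a log2 difference of -0.16 ± 0.0581 in the core (21 of 22 autosomes below 0) and -0.09 ± 0.0303 downstream (22 of 22). Relative to the density expected from GC content, the 3 core densities were -0.31 ± 0.0549, -0.19 ± 0.0430 and 0.03 ± 0.0508. Upstream, where the element lies, Alu-class runs had 5.31 midpoints per kb at 50 to 250 bp upstream, runs with the body word only 5.56, and runs with no motif or word 4.76. GC content there was 53.7%, 51.8% and 43.0%. The Alu class exceeded the class with no motif or word by 0.13 ± 0.0428 on the log2 scale, in 22 of 22 autosomes. Against all runs with neither motif, body word or not, the excess was 0.06 ± 0.0309, and relative to the density expected from GC content it was -0.09 ± 0.0323. With a minimum length of 20 bases this excess, as counted, turned to -0.013. By length, upstream density was 0.21 ± 0.0556 in Alu-class runs of 15 to 19 bases and 0.02 ± 0.0172 in those with no motif or word, and -0.09 ± 0.0838 and 0.0009 ± 0.0792 for runs of 30 bases or more. The 2 Alu-related classes had a further maximum at 215 bp upstream, with 1.39 and 1.36, where the class with no motif or word had 1.11 at 235 bp. The maximum next to the run was present in all, at 1.43, 1.49 and 1.38. On the downstream side, outside the element, the first maximum stood at 145 bp in all, with 1.23, 1.22 and 1.26.

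Among the longest runs of the 3 classes other than L1, core density was lowest beside an Alu end. For runs of 30 bases or more, core density was -2.40 ± 0.361 in the 5024 Alu-class runs, -1.89 ± 0.340 in the 2528 with the body word and -1.55 ± 0.513 in the 3551 with neither. The difference between the first and the last was -0.84 ± 0.635, below 0 in 21 of 22 autosomes. For runs of 15 to 19 bases it was -0.03 ± 0.0487, with 15 autosomes below 0. Lengths were not matched within these classes. Relative to the density expected from GC content, the 3 classes of long runs stood at -2.30, -1.76 and -1.22.

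Runs with the L1-end motif were few and looked different. An L1 tail without this exact motif would not be in the class, so the number of L1 tails is not known from it. The 1006 L1-class runs had 1.59 midpoints per kb at 50 to 250 bp upstream and 2.16 per kb at 250 to 1000 bp upstream. That is the side of the element, though how far each element reached was not determined. Downstream of the runs, density was 4.18 and 4.27 per kb at the same distances. At their off-site points these values lay between 4.35 and 4.54 per kb. The core held 2.04 midpoints per kb, and the median distance between neighbours was 830 bp against 230 bp off-site. Of these runs 68.2% touched no position, which was not counted off-site. In the 33 L1-class runs of 30 bases or more no midpoint stood in the core, and so few runs cannot show how low the density was. The part that read placement in repeat copies plays in the low upstream density was not tested.

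Core density was also read by the place of the run relative to genes. There were 101541 runs more than 2000 bp from any gene, with a core density of -0.17 ± 0.0405. In introns of protein-coding genes, 51592 runs read adenine on the sense strand and 69673 on the antisense strand, with core densities of -0.11 ± 0.0398 and -0.18 ± 0.0588. The difference of 0.08 ± 0.0572 was above 0 in 19 of 22 autosomes. Within classes of length it was 0.06 ± 0.0666 at 15 to 19 bases, 0.06 ± 0.0885 at 20 to 24 and 0.09 ± 0.200 at 25 to 29, with 18, 16 and 15 of 22 autosomes above 0, and none of these exceeded the spread over autosomes. At 30 bases or more it was 0.16, with 14 autosomes above 0 and no SD, since not every autosome gave a value. Only 3218 runs (1.21%) had their centre in an exon.

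**Figure D5:**
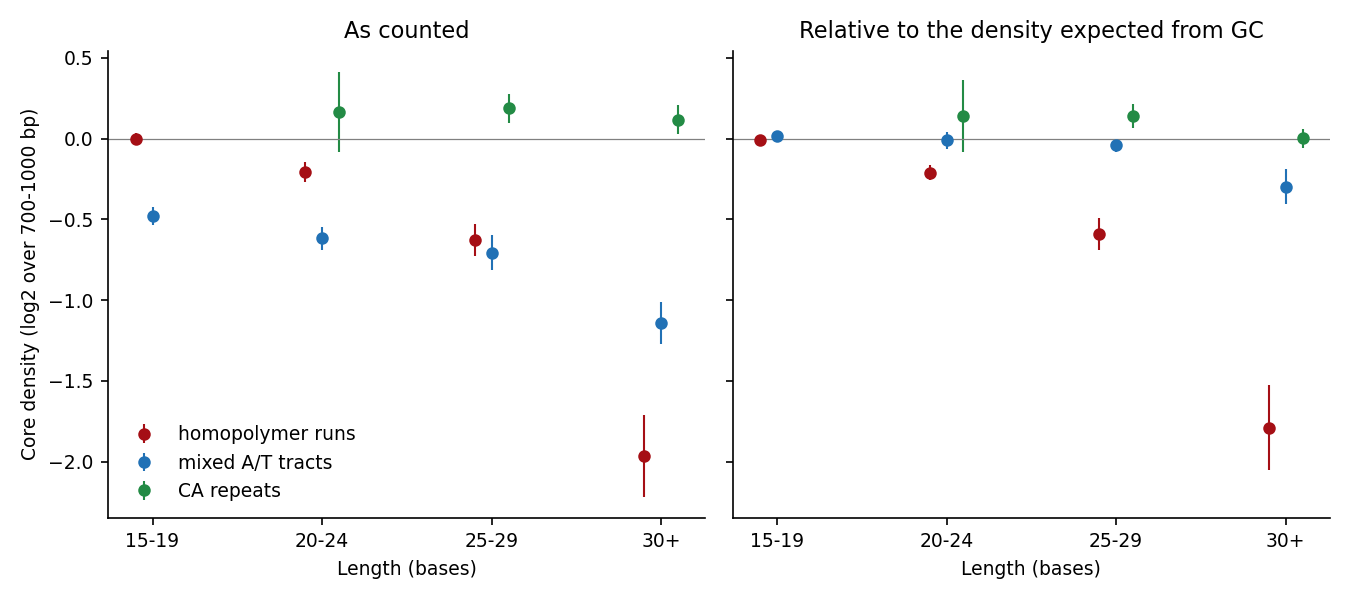
Core density (log2 of midpoint density within 50 bp of the centre over that at 700 to 1000 bp) by length in bases for homopolymer runs, mixed A/T tracts and repeats of the pair CA, as counted (left) and relative to the density expected from GC content (right). Points are values over all autosomes and bars the SD over 22 autosomes. On the right, homopolymer runs of 30 bases or more stand at -1.79 and mixed tracts at -0.30.

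Tracts of the same base content without a long homopolymer were compared next. There were 1348171 mixed tracts, at least 15 bases of A and T in any order with no single-letter run of 8 or more. As counted, their core density was -0.54 ± 0.0555, lower than that of the homopolymer runs by 0.38 ± 0.0692. GC content in their cores was 27.2%, against 36.5% at the homopolymer runs. Relative to the density expected from GC content the order turned, with the homopolymer runs lower by a log2 difference of -0.15 ± 0.0326. The sequence behind that expectation held the mixed tracts themselves, and how far this moved the order was not tested. Length mattered in both readings. At 30 bases or more the homopolymer runs were lower, with a difference of -0.82 ± 0.177 as counted and -1.49 ± 0.247 relative to GC content, in 22 of 22 autosomes each. At 15 to 19 bases they were higher as counted, by 0.48 ± 0.0763, and differed by -0.02 ± 0.0303 relative to GC content. The median length in the open class was 33 bases for homopolymer runs and 36 for mixed tracts. The median distance between neighbouring midpoints was 330 bp at mixed tracts, against 235 bp off-site. At homopolymer runs it was 250 bp against 220 bp. At 30 bases or more it was 380 bp for mixed tracts and 350 bp for homopolymer runs. In each class below 30 bases fewer centres lay inside a position at mixed tracts, with 35.2% against 38.4% at 25 to 29. At 30 or more the order turned, with 25.4% against 15.3%. Distances and shares were not compared at equal GC content.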

How the data were processed

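MNase-seq was done on hiPSC chromatin at 5 MNase concentrations, 1 library each, in 10 sequencing runs. The authors trimmed reads with Trimmomatic 0.40, aligned them to GRCh38 and ran the nucMACC workflow with a blacklist of problematic regions. The deposited list gives each position a signal whose scaling, caller and rules for reads from repeats are not given in the sources used here, so read depth behind a position is unknown. No autosomal position ended beyond its chromosome. Positions were used as deposited, without a filter.

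Runs, mixed tracts and CA repeats were found in the reference sequence, and transcript starts came from GENCODE 44 (the study names 48). Midpoints (start + 70) were counted by distance from the run centre. Core, upstream and downstream densities were divided by the density at 700 to 1000 bp. GC-expected density used 147-bp windows in classes of 5 percentage points. It was taken over all autosomal sequence at least 5000 bp from a transcript start, with runs, mixed tracts and CA repeats left in. The members, motifs and lists were chosen with earlier results of these data known, and the Alu body word and the comparison of tracts by length were added after seeing the data. The region named was chosen by the rule of longest and typical runs per class, and the other regions of that rule are not reported here. On 40000 simulated sites a core log2 density of -1 was recovered as -0.98. Counting was done in Python 3.11.15 with pandas 2.3.3 and NumPy 2.4.6, intervals with SciPy 1.17.1 and plots with matplotlib 3.10.9.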

Additional observations from a re-analysis of the deposited data

How the results depend on the processing

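Of 99 values recomputed for 10 results under 13 planned and 3 added settings, 58 kept their direction and moved by less than the spread given, 35 moved further and 6 turned direction. For the share of centres inside a position that spread was the half-width of its Wilson interval, 0.189 points. For the other results it was the SD over the autosomes. No paired analysis was possible because the data are 1 pooled list, and no replicate could be left out for the same reason. Dividing by the density expected from GC content turned the upstream density from 0.12 to -0.11, the upstream minus downstream difference from 0.23 to -0.052, the Alu-end minus neither-motif difference from 0.06 to -0.093 and the homopolymer minus mixed difference from 0.38 to -0.15, and made the downstream density -0.054. With a minimum length of 20 bases the Alu-end difference was -0.013, core density -0.42, the share of centres inside a position 44.5%, the extra distance between neighbours 50 bp, the score difference -3.41 and the mixed difference 0.31. The added settings gave -0.82 for the mixed difference at 30 bases or more, 0.48 at 15 to 19 bases, and 0.13 for the Alu-end difference without the body word. These 2 comparisons were chosen after seeing the data. Keeping only positions at or above the median score gave a core density of -0.61, upstream 0.32, downstream -0.28, their difference 0.60, 21.4% of centres inside, 40 bp of extra distance, a score difference of -1.78, a length difference of -1.70, an Alu-end difference of 0.16 and a mixed difference of 0.63. Dropping the lower-scoring positions can only lower the share of centres inside, and it narrows the range of scores. The off-site share under this filter is not reported here. Weighting by score gave -0.40 for core density, 0.21 upstream, -0.20 downstream and 0.41 for their difference. It gave -1.16 for length and 0.11 for the Alu-end difference. A core half-width of 25 bp gave -0.37 for core density and 0.23 for the mixed difference. Distances from the 5′ end gave -0.13 downstream and 0.27 for the difference of sides, and from the 3′ end -0.075 and 0.17. At 20000 bp from transcript starts 52.9% of centres lay inside and the extra distance was 35 bp, as it was for isolated runs (35 bp). A runs alone gave 53.6% and T runs 54.0%. The shares at 20000 bp, for A runs and for T runs thus counted as moved, though the SD of the share over autosomes was 2.11 points. The off-site share was 62.7% on the 5′ side and 62.8% on the 3′ side, so no separate value arises for the share itself. Causes of these shifts were not tested. Depth behind a position is unknown, and the list limits distances to steps of 10 bp.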

Other observations

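Shorter adenine runs were chosen by the same distance from transcript starts. The 607420 runs of 8 or 9 bases had a core density of -0.10 ± 0.013 and the 223444 runs of 10 or 11 bases -0.05 ± 0.0234, each below 0 in 22 of 22 autosomes. Relative to the density expected from GC content both stood at 0.07. The maxima beside runs of 8 or 9 bases were 1.07 upstream and 1.06 downstream.

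CA repeats, which are simple repeats without a homopolymer, had a maximum at their centre. The 39758 repeats of 12 units or more had a core density of 0.14 ± 0.0837, above 0 in 20 of 22 autosomes, with a central maximum of 1.35. Relative to the density expected from GC content it was 0.05 ± 0.0515, within its spread. Of the repeat centres, 58.8% lay inside a position against 60.7% off-site, below the off-site share in 20 of 22 autosomes. Density was 0.272 at -75 bp, on the 5′ side of the repeat. Mean score within 50 bp of the repeat centre differed from that in the flanks by -1.62 ± 0.561, below 0 in 22 of 22 autosomes. At 30 bases or more the homopolymer runs lay below the CA repeats by a log2 difference of -2.08 ± 0.277, and by -1.79 ± 0.271 relative to the density expected from GC content.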
